A study of Mus musculus with 2 samples.

Results

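The genes of MHC class II antigen presentation were followed in bulk RNA-seq of mouse bone marrow-derived myeloid-derived suppressor cells (MDSCs), which are immature cells of the myeloid lineage that can restrain T cell responses. The members were the rows of the deposited count table named H2-Aa, H2-Ab1, H2-Eb1, H2-DMa, H2-DMb1, H2-Oa, H2-Ob, Cd74 and Ciita, 9 genes of 54751. The mrWNT2 group was 1 library of wild-type bone marrow-derived MDSCs given mrWNT2, and the control group was 1 library of the same kind of cells given vehicle. Cells of both groups were treated on day 0 and day 3, grown in medium with fetal bovine serum and taken on day 6. The labels give neither the strain, age and number of mice nor the dose of mrWNT2 and the cytokines that drove differentiation. WNT2 belongs to the secreted WNT family of ligands, and the comparison asks how the cells' transcripts differ after exposure to it.

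MHC class II molecules are heterodimers of an alpha and a beta chain that show peptides from endosomes to CD4 T cells. The invariant chain, encoded by Cd74, fills the groove of newly made dimers and guides them to endosomes, where proteases trim it to a short fragment called CLIP. H2-DM (DMa and DMb chains) then exchanges CLIP for peptide, and H2-O (Oa and Ob chains) binds H2-DM and inhibits it. CIITA is the coactivator that switches these genes on through factors bound to the X and Y boxes of their promoters. B cells and dendritic cells carry class II constantly and macrophages can be induced to, whereas neutrophils and monocytes, the cells that MDSCs resemble, carry little.

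The X and Y boxes are shown first because they are the promoter elements through which CIITA is known to act on the class II chain genes and Cd74. RefSeq promoter windows (GRCm38.p6, 300 bases, from 250 before to 50 after a transcript start) were matched by symbol for 6 of the 9 members; H2-Ab1, Cd74 and Ciita had no window. Stretches of 80 bases are given for 5 genes on the gene's strand, 5′ to 3′. They are those of H2-Aa at chr17:34287852-34287931 (minus strand), H2-Eb1 at chr17:34305748-34305827, H2-DMb1 at chr17:34153070-34153149, H2-Oa at chr17:34092276-34092355 and H2-Ob at chr17:34238788-34238867 (the last 4 on the plus strand). Capitals mark the Y box core ATTGG and, before it, the X box letters ACNGATG and GNAAC, which share the bases AC where both are present.
H2-Aa: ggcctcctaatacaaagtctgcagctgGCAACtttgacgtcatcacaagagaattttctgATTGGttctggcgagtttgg
H2-Eb1: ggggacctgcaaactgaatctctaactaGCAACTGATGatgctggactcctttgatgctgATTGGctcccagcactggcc
H2-DMb1: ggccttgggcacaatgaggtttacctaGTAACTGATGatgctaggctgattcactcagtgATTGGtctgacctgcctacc
H2-Oa: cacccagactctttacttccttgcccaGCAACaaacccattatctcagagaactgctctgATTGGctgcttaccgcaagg
H2-Ob: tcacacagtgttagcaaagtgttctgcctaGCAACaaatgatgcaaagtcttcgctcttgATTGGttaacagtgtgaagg

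The Y box core stood between 43 and 61 bases before the RefSeq start in these 5 genes. ACNGATG followed by ATTGG after 15 to 35 bases, searched on both strands, was found in the windows of H2-Eb1 and H2-DMb1 and in 0.174% of all 32851 windows. GNAAC at that distance, a pattern chosen after the sequences had been seen, was found in 5 of the 7 member windows and in 3.51% of all windows. The 5 genes shown are those, of the 6 members with a window, that hold either pair on the gene's strand. A pair in each of them was therefore fixed by the choice. Taken singly, GNAAC was in 84.8% of all windows, while ATTGG was in 37.4% and ACNGATG in 9.85%. Neither pair was found in the 2 windows of H2-DMa, which lie 12350 and 9664 bases before the gene start of the deposited table. A match is a description of the letters, and binding was not measured.

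Library totals were 12621110 counts for mrWNT2 and 13474453 for control. Values below are CPM (counts scaled to a library's total after TMM adjustment) or the deposited FPKM, which is also scaled to gene length and allows levels of different genes to be compared. Without replicates there is no test, and differences have no replicate check. Every interval is an exact 95% interval and reflects only the counting error between these 2 libraries. It is a Clopper-Pearson interval for a ratio, a Poisson interval for a level and a conditional interval for a ratio of ratios. Myeloid identity was checked with Itgam (CD11b), at 477 CPM in mrWNT2 and 495 CPM in control, and with S100a8, which encodes a calcium-binding protein abundant in neutrophils and monocytes, at 12588 CPM in mrWNT2 and 15750 CPM in control. Of 9 myeloid identity genes, all measured, 7 were within 1.5-fold, 1 was lower and 1 higher. Among all measured genes, 7.02% were at least 1.5-fold lower and 7.62% higher, so most were within 1.5-fold too. Ly6g, the granulocyte marker, was at 86.3 CPM in mrWNT2 and 173 CPM in control. Csf1r, which encodes the receptor of the macrophage growth factor M-CSF, was at 346 CPM in mrWNT2 and 146 CPM in control.

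The class II genes did not move as 1 group. In the mrWNT2 library Cd74, the classical chain genes H2-Aa and H2-Eb1 and the coactivator gene Ciita were at least 1.5-fold lower, and both chain genes of the inhibitor H2-O were more than 3-fold higher. H2-Ab1 and the H2-DM genes were lower by less than 1.5-fold. All 9 members passed the minimum mean of 1 CPM that was set for a measured gene. A 1.5-fold difference was reached downward by 4 members, beside 7.02% of the 12856 measured genes, and upward by 2 members, beside 7.62%. H2-Ob, 1 of the 2 higher members, passed the minimum only through its level in mrWNT2, since its control level of 0.449 CPM was below it, so its upward difference is partly a condition of its being counted. A 2-fold difference was reached downward by 1 member, beside 2.49% of measured genes, and upward by 2, beside 3.38%. The median log2 ratio was -0.33 over the members and 0.02 over all measured genes. In RNA from whole cultures, fewer cells of a type and less RNA per cell cannot be told apart.

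**Figure D1:**
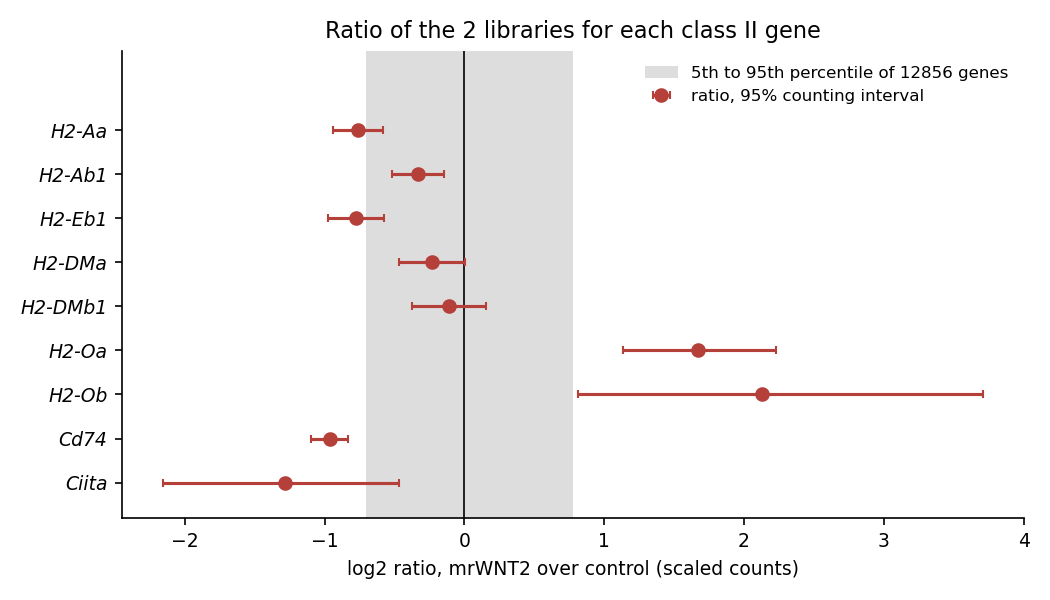
Log2 ratio of mrWNT2 over control for each class II gene (points) with its 95% counting interval (bars); the grey band runs from the 5th to the 95th percentile of 12856 genes. The points of H2-Oa and H2-Ob lie above the band, and those of H2-Aa, H2-Eb1, Cd74 and Ciita lie below it. The bars of H2-Aa, H2-Eb1 and Ciita reach into the band.

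Background shares depend on the level, since low counts scatter more. Among the 6 members averaging 10 CPM or more, 3 were lower by 1.5-fold or more and 0 higher, beside 2.95% lower and 4.12% higher among the 8543 genes of that level. The other 3, Ciita, H2-Oa and H2-Ob, had means between 1 and 10 CPM, where 15.1% of 4313 genes were at least 1.5-fold lower and 14.6% higher by as much.

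Cd74 was the most abundant member. It had 675 counts in mrWNT2 and 1384 in control, which is 53.1 CPM in mrWNT2 and 103 CPM in control, and was 1.95-fold lower (interval 1.78 to 2.14). Of all genes kept, 2.69% had a lower ratio. Besides its role as chaperone, the CD74 protein is a surface receptor for the cytokine MIF. Of 5 genes of that axis (the ligands Mif and Ddt, and the partner receptors Cd44, Cxcr2 and Cxcr4), 2 were at least 1.5-fold higher and 1 lower. Among all measured genes, 7.62% were higher and 7.02% lower by as much. Mif was at 91.2 CPM in mrWNT2 and 59.9 CPM in control (1.52-fold higher, 1.39 to 1.67, and below 1.5-fold with DESeq2 size factors or the deposited FPKM). Ddt, named after its value was seen, was 1.63-fold higher (1.15 to 2.33). Cxcr4 was 1.54-fold lower, at 110 CPM in mrWNT2 and 170 CPM in control. The most abundant of the 5 genes, Cd44 and Cxcr2, were 1.15-fold and 1.09-fold lower.

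The classical chain genes fall into the I-A pair, H2-Aa and H2-Ab1, and the I-E beta gene H2-Eb1. H2-Aa had 419 counts in mrWNT2 and 746 in control, or 32.9 CPM in mrWNT2 and 55.8 CPM in control, and was 1.69-fold lower (1.5 to 1.91). H2-Eb1 had 326 counts in mrWNT2 and 586 in control, or 25.6 CPM in mrWNT2 and 43.8 CPM in control, and was 1.71-fold lower (1.49 to 1.96). H2-Ab1 had 426 counts in mrWNT2 and 563 in control, or 33.5 CPM in mrWNT2 and 42.1 CPM in control, and was 1.26-fold lower (1.11 to 1.43). All 3 were lower in the mrWNT2 library, with intervals that did not reach equal levels. The alpha and beta genes of I-A, whose products pair, differed in size. The count ratio of H2-Ab1 to H2-Aa was 1.02 in mrWNT2 and 0.755 in control, so that H2-Ab1 was 1.35-fold higher relative to H2-Aa (1.13 to 1.61). H2-Eb1 and H2-Aa kept a closer proportion, with a ratio of ratios of 0.990 (0.823 to 1.19). These comparisons of 2 genes within a library do not depend on how the libraries are scaled. H2-Ea-ps, the I-E alpha gene that the table lists as an unprocessed pseudogene, had 0 counts in both libraries. A count of 0 was taken to stand for at most 3 counts, which is 0.236 CPM in mrWNT2 and 0.224 CPM in control. H2-Eb2, a relative of H2-Eb1, had 3 counts in mrWNT2 and 2 in control, too few for a direction.

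**Figure D2:**
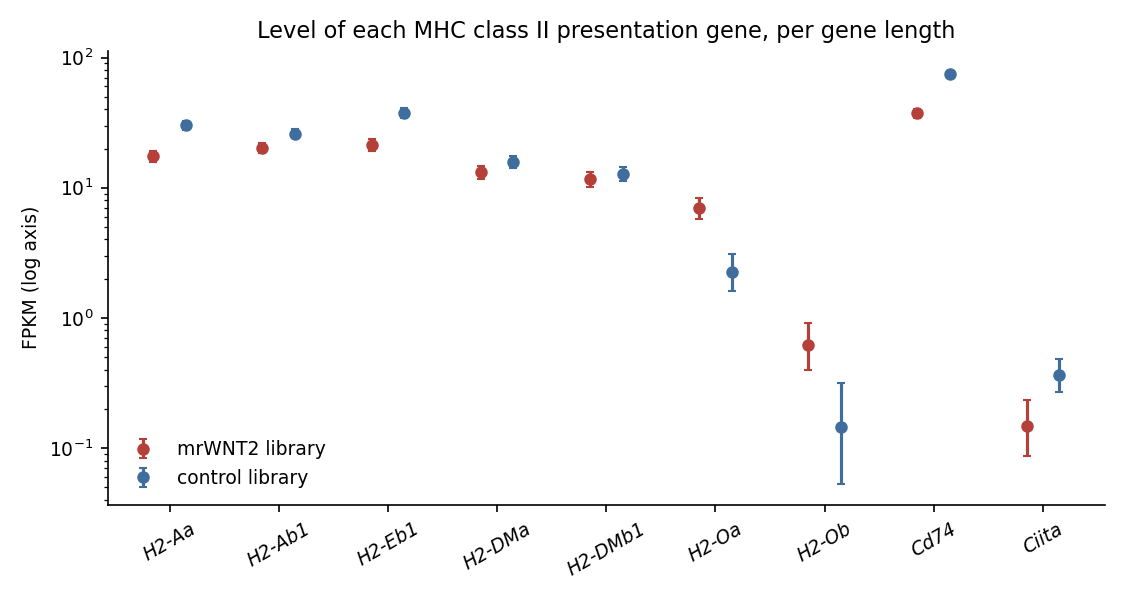
Deposited FPKM of each class II gene (log axis) in the mrWNT2 library (left point of each pair) and the control library (right point), with exact Poisson 95% counting intervals. Cd74 is highest in both libraries, and H2-Ob and Ciita change places at the low end.

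Per gene length, the order of levels was nearly the same in the libraries. In mrWNT2 it ran from Cd74 (37.2 FPKM) through H2-Eb1 (21.4), H2-Ab1 (20.2), H2-Aa (17.4), H2-DMa (13.1), H2-DMb1 (11.6), H2-Oa (6.98) and H2-Ob (0.616) to Ciita (0.147). In control it ran from Cd74 (74.3 FPKM) through H2-Eb1 (37.4), H2-Aa (30.1), H2-Ab1 (26.0), H2-DMa (15.8), H2-DMb1 (12.8), H2-Oa (2.25) and Ciita (0.365) to H2-Ob (0.144). H2-Aa and H2-Ab1 exchanged places, as did H2-Ob and Ciita. In mrWNT2 the counting intervals of the neighbours H2-Eb1 and H2-Ab1, H2-Ab1 and H2-Aa, and H2-DMa and H2-DMb1 overlapped. In control those of H2-Aa and H2-Ab1, of H2-DMa and H2-DMb1, and of Ciita and H2-Ob overlapped. The level of Cd74 was 2.14 times that of H2-Aa in mrWNT2 and 2.47 times in control.

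Among the members, H2-DMa and H2-DMb1, genes of the peptide exchange factor H2-DM, differed least. H2-DMa had 277 counts in mrWNT2 and 342 in control, or 21.8 CPM in mrWNT2 and 25.6 CPM in control, a 1.17-fold lower level with an interval from 0.999 to 1.38. H2-DMb1 had 222 counts in mrWNT2 and 252 in control, or 17.5 CPM in mrWNT2 and 18.8 CPM in control, 1.08-fold lower (0.898 to 1.30). Both intervals hold equal levels. H2-DMb2, a close copy of H2-DMb1 on the same stretch of chromosome 17, had 96 counts in mrWNT2 and 141 in control and was 1.40-fold lower (1.07 to 1.83). The split of reads between the copies is uncertain, and with their counts added the pair was 1.18-fold lower (1.01 to 1.37). Relative to H2-Aa, H2-DMa was 1.44-fold higher in mrWNT2 (1.18 to 1.77). H2-DMb1 relative to H2-DMa had a ratio of ratios of 1.09 (0.849 to 1.39), which was 0.999 with H2-DMb2 added.

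The genes of the inhibitor H2-O went the other way. H2-Oa had 118 counts in mrWNT2 and 39 in control, or 9.28 CPM in mrWNT2 and 2.92 CPM in control, and was 3.18-fold higher (2.20 to 4.70). Of all genes kept, 1.40% had a higher ratio. H2-Ob had 25 counts in mrWNT2 and 6 in control, or 1.97 CPM in mrWNT2 and 0.449 CPM in control, and was 4.38-fold higher, with a wide interval of 1.75 to 13.1. Both chain genes were thus above control, although H2-Ob passed the minimum mean only through its level in mrWNT2. The ratios of H2-Oa and H2-Ob could not be separated at this depth (ratio of ratios 1.38, 0.501 to 4.40). An antisense gene, BC051537, overlaps the whole of H2-Oa and had 0 counts in both libraries.

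The balance between exchange factor and inhibitor transcripts differed accordingly. Per gene length, H2-DMa was 1.88 times as abundant as H2-Oa in mrWNT2 and 7.02 times in control. H2-DMb1 was 18.9 times as abundant as H2-Ob in mrWNT2 and 89.2 times in control. In counts, H2-Oa was 3.74-fold higher relative to H2-DMa in mrWNT2 (2.48 to 5.70), and H2-Ob 4.73-fold higher relative to H2-DMb1 (1.84 to 14.3). The H2-Ob values rest on 6 counts in control. The 2 chains of H2-O were not equally expressed, since the FPKM of H2-Oa was 11.3 times that of H2-Ob in mrWNT2 and 15.6 times in control. Protein was not measured.

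**Figure D3:**
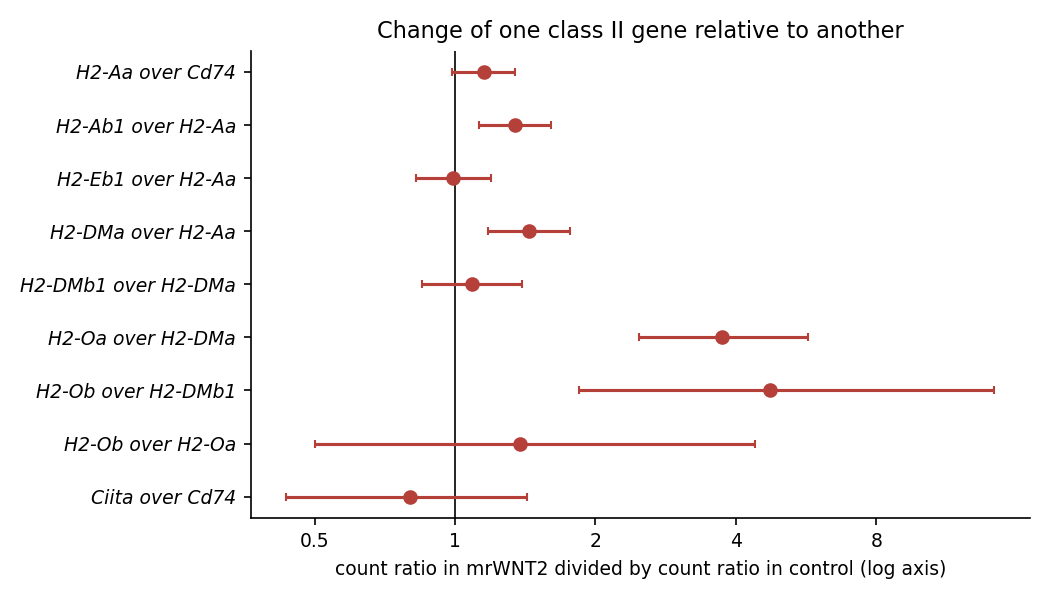
Count ratio of one class II gene to another in mrWNT2 divided by the same ratio in control (log axis, points) with exact conditional 95% intervals (bars). The intervals of H2-Oa over H2-DMa and of H2-Ob over H2-DMb1 lie above 1, as do, nearer to it, those of H2-Ab1 and H2-DMa over H2-Aa.

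Ciita was weakly expressed in both libraries, as its FPKM values show. It had 18 counts in mrWNT2 and 46 in control, or 1.42 CPM in mrWNT2 and 3.44 CPM in control, and was 2.43-fold lower (1.38 to 4.45). Relative to Cd74, one of its target genes, its ratio of ratios was 0.802 (0.434 to 1.42), so the sizes of the differences in the pair could not be told apart. Dexi, on the opposite strand, overlaps Ciita over 25888 bases and had 46 counts in mrWNT2 and 53 in control; the sources used here do not say whether reads were counted by strand, and those of the overlap cannot be assigned with certainty. Nlrc5, which encodes the class I counterpart of CIITA, was at 13.7 CPM in mrWNT2 and 13.9 CPM in control (1.02-fold lower, ratio 0.80 to 1.22).

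The factors with which CIITA works at class II promoters differed little. Of 11 genes of the RFX complex, NF-Y, CREB1 and their coactivators, all measured, 0 were at least 1.5-fold higher or lower, and the median log2 ratio was -0.04. Among all measured genes, 7.62% were higher and 7.02% lower by as much. Ep300, a histone acetyltransferase gene, was 1.21-fold lower, at 258 CPM in mrWNT2 and 311 CPM in control. Nfya, which encodes a subunit of the Y box factor NF-Y, was at 80.8 CPM in mrWNT2 and 77.9 CPM in control. Rfx5, which encodes the X box binding subunit of RFX, was at 11.5 CPM in mrWNT2 and 9.27 CPM in control, a 1.24-fold higher level with an interval of 0.97 to 1.59.

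Among 15 genes known to act on Ciita, 14 were measured. Of those, 3 were higher by 1.5-fold or more, beside 7.62% of all measured genes, and 1 was lower, beside 7.02%. Interferon gamma is the classical inducer of class II, in part through IRF1. Ifng had 0 counts in both libraries, and Irf1 was at 42.2 CPM in mrWNT2 and 48.8 CPM in control. Irf8, which encodes a factor of dendritic cell and monocyte development that acts on Ciita in myeloid cells, was 1.60-fold lower, at 8.10 CPM in mrWNT2 and 12.9 CPM in control. Spi1, the gene of the myeloid factor PU.1, and Jak1 were the most abundant of the list, and both were 1.04-fold lower. Socs3, a feedback inhibitor gene of cytokine signalling, was 2.71-fold higher (2.48 to 2.96), at 141 CPM in mrWNT2 and 52.0 CPM in control. Irf4, which encodes a factor of lymphoid and dendritic cells, was 1.68-fold higher (1.40 to 2.01). Prdm1, which encodes BLIMP-1, a repressor of Ciita in plasma cells, was 2.18-fold higher (1.49 to 3.25) from 85 counts in mrWNT2 and 41 in control; it was named after its value was seen.

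Proteases and cofactors of the class II compartment went both ways: of 10 genes, all measured, 2 were lower by 1.5-fold or more and 1 was higher. Among all measured genes, 7.02% were lower and 7.62% higher by as much. These shares also stand beside the other lists of this paragraph. Lgmn, the asparaginyl endopeptidase gene, was 2.33-fold lower, at 118 CPM in mrWNT2 and 275 CPM in control. Ctsl, the cathepsin L gene, was 1.94-fold lower, at 390 CPM in mrWNT2 and 754 CPM in control. Ctss, which encodes the protease that removes most of the invariant chain in dendritic cells and B cells, was 1.30-fold lower, at 243 CPM in mrWNT2 and 316 CPM in control. Ctsz was 1.75-fold higher, at 447 CPM in mrWNT2 and 255 CPM in control. The most abundant of the 10, Ctsd and Ctsb, were 1.08-fold higher and 1.15-fold lower. Of 4 genes of class II turnover, 1 was at least 1.5-fold higher. It was Il10, the gene of a cytokine that lowers class II on monocytes, named after its value was seen, with 40 counts in mrWNT2 and 15 in control (2.80-fold, 1.52 to 5.46). March1, which encodes the ubiquitin ligase that removes class II from the surface, was 1.22-fold higher (1.10 to 1.35), and its relative March8 was at 47.2 CPM in mrWNT2 and 48.5 CPM in control. Of 6 costimulatory and coinhibitory ligand genes, 5 were measured and 0 were at least 1.5-fold higher or lower. Cd274, the PD-L1 gene, was 1.18-fold higher and Cd80 was 1.05-fold higher.

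**Figure D4:**
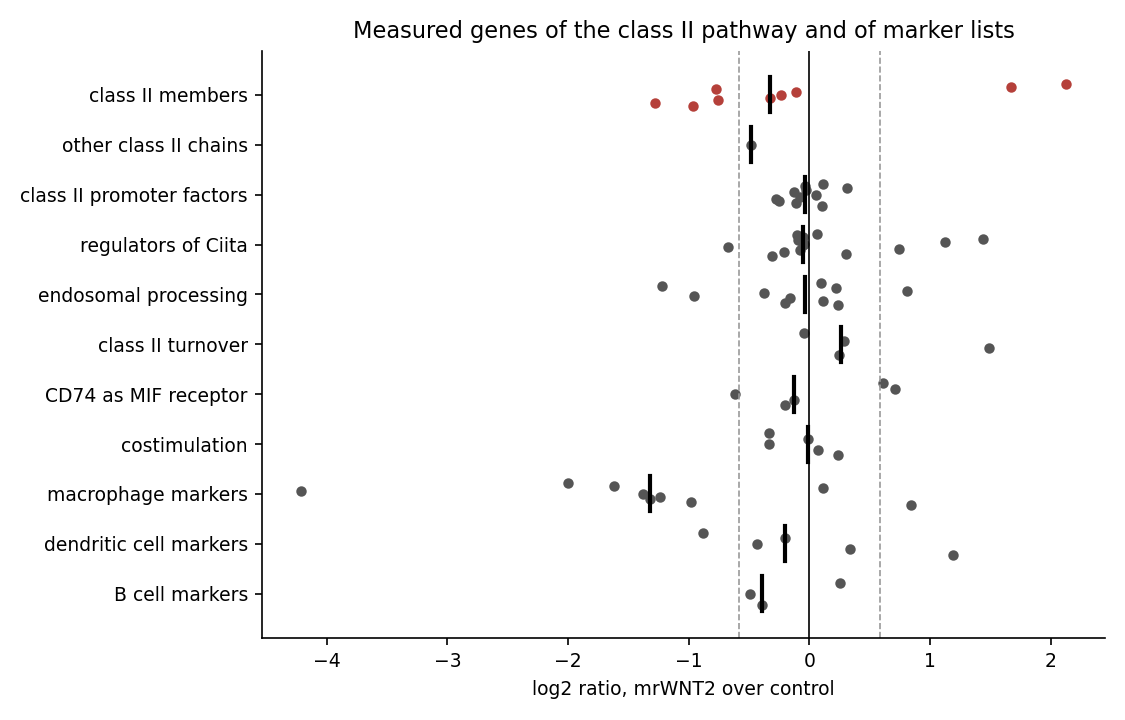
Log2 ratio of mrWNT2 over control for every measured gene in the class II group, the pathway lists (without Nlrc5) and 3 marker lists (points), with the list median (thick line). Dashed lines mark 1.5-fold. The class II promoter factors stay inside the dashed lines, and 7 of 9 macrophage markers lie to the left of them.

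All members but Cd74, on chromosome 18 (60803848 to 60812646), and Ciita, on chromosome 16 (10480059 to 10528418), lie in 1 interval of chromosome 17 (34092340 to 34316199, 1-based, GRCm38), which spans 223.9 kb. The interval held 19 genes of the table, 13 of them measured. The 6 measured genes that are not members were all within 1.5-fold, with a median log2 ratio of 0.02. They were H2-DMb2 (log2 ratio -0.48), the bromodomain gene Brd2 next to H2-Oa (-0.05), and the class I transporter and immunoproteasome genes Psmb9 (0.01), Tap1 (0.27), Psmb8 (0.56) and Tap2 (0.03), which lie between the H2-DM genes and H2-Ob. Of the 12856 genes of the background, only 7.02% passed the 1.5-fold line downward and 7.62% upward. Staying within it therefore does not set these 6 genes apart. Psmb8 was just inside the line, at 1.47-fold higher (1.29 to 1.69). H2-Oa (34092340 to 34095234) and H2-Ob (34238903 to 34245907) are not adjacent. H2-Ab1 (34263209 to 34269418), H2-Aa (34282744 to 34287827) and H2-Eb1 (34305877 to 34316199) follow H2-Ob at the far end.

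**Figure D5:**
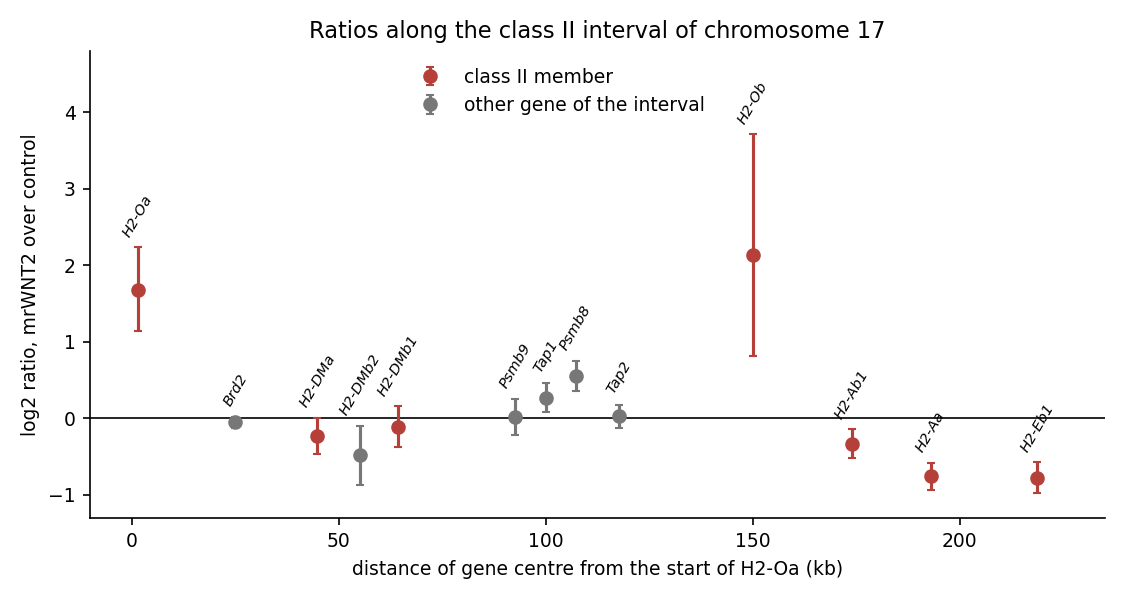
Log2 ratio of mrWNT2 over control (points, with 95% counting intervals) against the distance of each measured gene's centre from the start of H2-Oa, for class II members and for the other genes of the interval. H2-Oa and H2-Ob stand above their neighbours, while H2-Ab1, H2-Aa and H2-Eb1 lie below 0.

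Markers of other cells that carry class II were read beside these values. Among all measured genes, 7.02% were at least 1.5-fold lower and 7.62% higher, the shares that stand beside each marker list. Of 10 B cell markers, 3 were measured and 0 of those were at least 1.5-fold higher or lower; their summed level was 7.08 CPM in mrWNT2 and 8.08 CPM in control. The 3 measured were the B cell receptor genes Cd79a, with 27 counts in mrWNT2 and 40 in control, and Cd79b, with 25 in mrWNT2 and 22 in control, and Cd22, with 29 in mrWNT2 and 40 in control. Ms4a1 had 1 count in mrWNT2 and 0 in control, and Pax5, Blk and Fcmr had 0 in both. Of 10 conventional dendritic cell markers, 5 were measured, 1 at least 1.5-fold higher and 1 lower. The summed level of the 10 was 39.2 CPM in mrWNT2 and 42.5 CPM in control. Most of that sum came from 1 gene, Itgax (CD11c), at 25.1 CPM in mrWNT2 and 28.8 CPM in control. Flt3 had 2 counts in mrWNT2 and 3 in control and Xcr1 had 2 in both. Batf3, a factor of cross-presenting dendritic cells, was 2.28-fold higher (1.11 to 4.96) from 26 counts in mrWNT2 and 12 in control. Its control level of 0.897 CPM was below the minimum, so Batf3 was counted only through its level in mrWNT2. Kmo was 1.84-fold lower from 16 counts in mrWNT2 and 31 in control, with a ratio between 0.28 and 1.02. Of 5 plasmacytoid dendritic cell markers, 2 were measured and 1, the broadly interferon-responsive Bst2, was at least 1.5-fold higher. The summed level was 33.3 CPM in mrWNT2 and 23.6 CPM in control, with 0 counts of Siglech in both. Macrophage markers were mostly lower in mrWNT2: of 10, 9 were measured, 7 at least 1.5-fold lower and 1 higher. Their summed level was 1193 CPM in mrWNT2 and 1917 CPM in control. Mrc1, the mannose receptor gene, was 3.07-fold lower and the complement gene C1qb 2.50-fold lower, whereas Adgre1, which encodes F4/80, was 1.8-fold higher. Mertk was 1.08-fold higher. Of 7 T cell and innate lymphoid markers, 1 was measured, Il7r, and Cd3e had 0 counts in mrWNT2 and 1 in control. The part of any of these cell types in the class II values was not tested.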

How the data were processed

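RNA-seq was carried out on 1 library of mrWNT2-treated and 1 of vehicle-treated MDSCs. Per the labels' protocols, RNA was isolated with TRIzol and libraries were made with a NEBNext Ultra kit. The build was GRCm38, per the submitters' processing notes, which also list HISAT2 2.0.5, fastp, featureCounts 1.5.0-p3, CASAVA 1.8 and DESeq2 1.20.0. The authors deposited raw counts and FPKM per gene for each library.

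Counts were scaled by TMM factors (edgeR 4.0.16, R 4.3.3). A gene was called measured if its mean was at least 1 CPM. Ratios are mrWNT2 over control without a pseudocount, and 0 counts stand for at most 3. Reads carry no molecular identifiers. Over 10078 genes the log2 ratio of the deposited FPKM differed from that of the counts by a constant, within 1.2e-08.

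Members and lists were chosen with earlier results of these data known. Named were all members and, per pathway list, the 2 most abundant genes and those with a mean of at least 10 CPM and a 1.5-fold difference. Marker lists are given by counts, summed levels and markers at 0; other genes are examples chosen after their values were seen. March1 and March8, which the table gives as dates, were matched by gene identifier. The interval method was tested on simulated data that held counting error only, which is what the interval assumes. That test cannot speak to variation between libraries. Alternatives were DESeq2 1.42.0 size factors, library totals, FPKM, other minimum levels, 2-fold, another value for 0 counts and added copies.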

Additional observations from a re-analysis of the deposited data

How the results depend on the processing

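Each group had 1 library, so no library could be left out. No paired analysis was possible because there was 1 library per group and no result comes from a test. Scaling by DESeq2 size factors or taking the deposited FPKM shifted every member's log2 ratio by -0.03, and library totals shifted it by 0.02; neither changed a direction or the counts of 4 members lower and 2 higher. With a minimum mean of 10 CPM, 0 members were higher, since H2-Oa and H2-Ob fall below it, and the median log2 ratio of the remaining 6 was -0.54. At 2-fold, 1 member, Ciita, was lower and H2-Oa and H2-Ob were higher. The ratio of H2-DMb1 to H2-DMa turned from above 1 to 0.999 with H2-DMb2 added, with an interval that holds 1 both ways. Depth limits Ciita and H2-Ob most, with 18 and 25 counts in mrWNT2 and 46 and 6 in control.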
